A study of Mus musculus with 2 samples.

Results

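The immunoglobulin variable (V) gene segments were followed in ribosome footprints from mouse ileum, the segment of the small intestine next to the colon. Members were all rows whose gene symbol begins with Ighv, Igkv or Iglv, with a missing value read as 0, which gave 216 of the 22756 gene rows: 112 heavy chain, 101 kappa and 3 lambda segments. The choice of members used no measured value. A footprint is a short piece of mRNA covered by a translating ribosome and so spared by nuclease, and its count reflects both the amount of an mRNA and its translation. The mice were wild type C57BL/6 animals at postnatal day 21, around weaning, either fed or without food for 48 h, with 1 library for each condition. How many animals each library holds, and whether they were pooled, is not stated in the labels. With 1 library per condition no test could be run and no p-value is given. Every difference is between these 2 libraries, and each interval is a 95% exact (Clopper-Pearson) interval that covers counting error only. In whole tissue, fewer cells of a type and less RNA per cell cannot be told apart.

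An antibody chain is encoded by a V segment that a developing B cell joins to a joining (J) segment, and in the heavy chain also to a diversity (D) segment, ahead of a constant region. Each B cell keeps 1 heavy and 1 light chain rearrangement as a rule, and its descendants inherit them, so the V segments in use in a tissue reflect which B cell clones are present. In the gut most immunoglobulin is IgA, secreted by plasma cells under the epithelium and carried into the lumen by the polymeric immunoglobulin receptor. Many V segments are close copies of each other, and a read that fits more than 1 place in the genome was not counted for any gene in these files, so the count of a segment rests on the part of its sequence that sets it apart.

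That limit is visible in the segments with most counts of the heavy and kappa classes. Each sequence below is the end of the V exon on the coding strand (5′ to 3′), read from the GENCODE transcripts on mm10. Capitals mark bases covered by at least 1 window of 28 bases, about the length of a footprint, that occurs in no other gene's annotated transcripts.
Ighv1-26: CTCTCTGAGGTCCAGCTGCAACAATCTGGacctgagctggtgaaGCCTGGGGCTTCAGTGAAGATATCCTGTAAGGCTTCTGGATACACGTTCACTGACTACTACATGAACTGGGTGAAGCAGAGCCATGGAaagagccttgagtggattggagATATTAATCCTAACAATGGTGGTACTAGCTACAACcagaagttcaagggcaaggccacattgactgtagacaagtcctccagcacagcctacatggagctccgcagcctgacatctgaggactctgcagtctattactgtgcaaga
Igkv5-48: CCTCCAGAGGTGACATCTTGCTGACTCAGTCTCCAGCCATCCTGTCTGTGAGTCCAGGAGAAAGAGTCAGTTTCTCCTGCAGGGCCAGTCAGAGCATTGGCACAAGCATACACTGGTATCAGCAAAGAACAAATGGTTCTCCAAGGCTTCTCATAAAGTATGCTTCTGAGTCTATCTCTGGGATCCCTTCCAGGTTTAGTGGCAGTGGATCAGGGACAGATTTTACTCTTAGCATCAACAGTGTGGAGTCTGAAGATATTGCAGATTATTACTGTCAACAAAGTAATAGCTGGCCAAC
The stretch of Ighv1-26 lies at chr12:114788372-114788671 (minus strand) and has 152 of 300 bases in capitals. The stretch of Igkv5-48 lies at chr6:69726573-69726870 (minus strand) and is in capitals throughout, at 298 of 298. Over the whole coding part, 21.3% of the windows of Ighv1-26 and 100% of those of Igkv5-48 were found in no other gene. The median was 48.3% over heavy and 46.3% over kappa segments, so a level set between segments compares unequal countable parts, although their coding lengths differ little (334 to 394 bases over heavy and kappa segments). A fasted/fed ratio compares the same part of 1 segment in both libraries.

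The sequence lines that follow pair close relatives within a class. In each class they are the measured segment and closest measured relative whose fasted/fed ratios lay farthest apart, a choice made after the values were seen, and capitals mark the bases at which the pair differs.
Ighv1-52: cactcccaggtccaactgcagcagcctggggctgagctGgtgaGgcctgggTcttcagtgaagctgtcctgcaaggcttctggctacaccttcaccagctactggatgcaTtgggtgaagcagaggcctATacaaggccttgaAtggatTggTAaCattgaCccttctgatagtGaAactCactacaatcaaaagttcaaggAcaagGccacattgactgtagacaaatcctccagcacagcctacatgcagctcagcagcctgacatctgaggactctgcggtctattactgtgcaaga
Ighv1-69: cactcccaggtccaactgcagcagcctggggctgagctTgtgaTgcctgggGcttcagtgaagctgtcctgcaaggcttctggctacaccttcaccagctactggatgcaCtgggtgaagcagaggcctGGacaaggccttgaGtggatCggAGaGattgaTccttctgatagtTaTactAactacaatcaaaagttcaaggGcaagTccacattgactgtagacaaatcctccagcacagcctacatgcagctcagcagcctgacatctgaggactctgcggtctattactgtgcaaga
Igkv3-1: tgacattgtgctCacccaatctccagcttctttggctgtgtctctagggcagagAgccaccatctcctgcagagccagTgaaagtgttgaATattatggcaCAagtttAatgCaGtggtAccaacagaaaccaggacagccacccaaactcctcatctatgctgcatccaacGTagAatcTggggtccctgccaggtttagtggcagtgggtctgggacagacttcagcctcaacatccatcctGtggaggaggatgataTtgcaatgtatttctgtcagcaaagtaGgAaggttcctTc
Igkv3-2: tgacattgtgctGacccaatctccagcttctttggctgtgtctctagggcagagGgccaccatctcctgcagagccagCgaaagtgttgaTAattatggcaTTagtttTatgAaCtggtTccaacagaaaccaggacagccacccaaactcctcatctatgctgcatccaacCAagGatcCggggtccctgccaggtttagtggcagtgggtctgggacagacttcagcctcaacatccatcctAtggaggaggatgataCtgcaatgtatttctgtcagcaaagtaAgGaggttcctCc
Iglv1: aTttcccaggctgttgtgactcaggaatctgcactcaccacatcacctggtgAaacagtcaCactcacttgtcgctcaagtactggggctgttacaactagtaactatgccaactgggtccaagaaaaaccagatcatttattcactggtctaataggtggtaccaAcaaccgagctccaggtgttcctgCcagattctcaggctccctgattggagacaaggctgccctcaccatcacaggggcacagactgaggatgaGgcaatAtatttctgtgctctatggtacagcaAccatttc
Iglv2: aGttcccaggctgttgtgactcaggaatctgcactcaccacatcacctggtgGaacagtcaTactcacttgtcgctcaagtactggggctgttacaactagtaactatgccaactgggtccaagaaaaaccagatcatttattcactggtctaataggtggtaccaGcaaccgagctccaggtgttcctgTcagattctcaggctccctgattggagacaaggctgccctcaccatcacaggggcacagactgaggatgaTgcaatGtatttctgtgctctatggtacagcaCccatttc
Ighv1-52 (chr12:115145487-115145786, minus strand) and Ighv1-69 (chr12:115623161-115623460, minus strand) differ at 17 of these 300 bases. Igkv3-1 (chr6:70703878-70704177, plus strand) and Igkv3-2 (chr6:70698768-70699067, plus strand) differ at 20. Iglv1 (chr16:19085017-19085316, minus strand) and Iglv2 (chr16:19260401-19260700, minus strand) differ at 8.

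V segments as a whole took a smaller part of the footprints in the fasted library, and single segments were spread widely around that shift. All V segments together held 24151 fed and 10563 fasted counts, 0.434% (interval 0.429% to 0.440%) and 0.194% (0.191% to 0.198%) of the counts assigned to genes. After library scaling by TMM (trimmed mean of M-values, which sets the typical gene's ratio near 1), the fasted/fed ratio of the sum was 0.560 (0.547 to 0.573). Of the 216 members, 25 had no read in either library, 61 had 1 to 29 counts over both and 130 had at least 30, the minimum for giving a ratio. Those 130 held 98.5% of all V counts. A segment was taken as higher or lower when its ratio was at least 1.5-fold from 1 and its interval excluded 1. By that rule 78 of the 130 were lower in the fasted library, 60.0%, against 17.3% of the 11333 gene rows with at least 30 counts. Another 19 were higher, 14.6%, against 17.3% of gene rows, so the share of higher segments lay near the background, and the other 33 met neither condition. On the log2 scale the median ratio was -0.95 over the 130 segments and 0.0028 over all such gene rows.

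The spread was wider than that of all gene rows in the same range of counts. Those rows include the V segments, and counts were not matched within the range. The middle 50% of segments spanned 2.10 log2 units, from -2.05 to 0.055, against 0.866 for the 10858 gene rows in the same range of counts (30 to 3373). At the edge of the minimum, Ighv1-85 (16 fed and 14 fasted counts) and Igkv4-79 (29 and 8) were just inside, and Ighv1-4 (19 and 3), Igkv6-14 (15 and 14) and Iglv3 (12 and 12) just outside. None of the members read in 1 library alone, 13 of them fed and 6 fasted, had more than 14 counts.

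**Figure D1:**
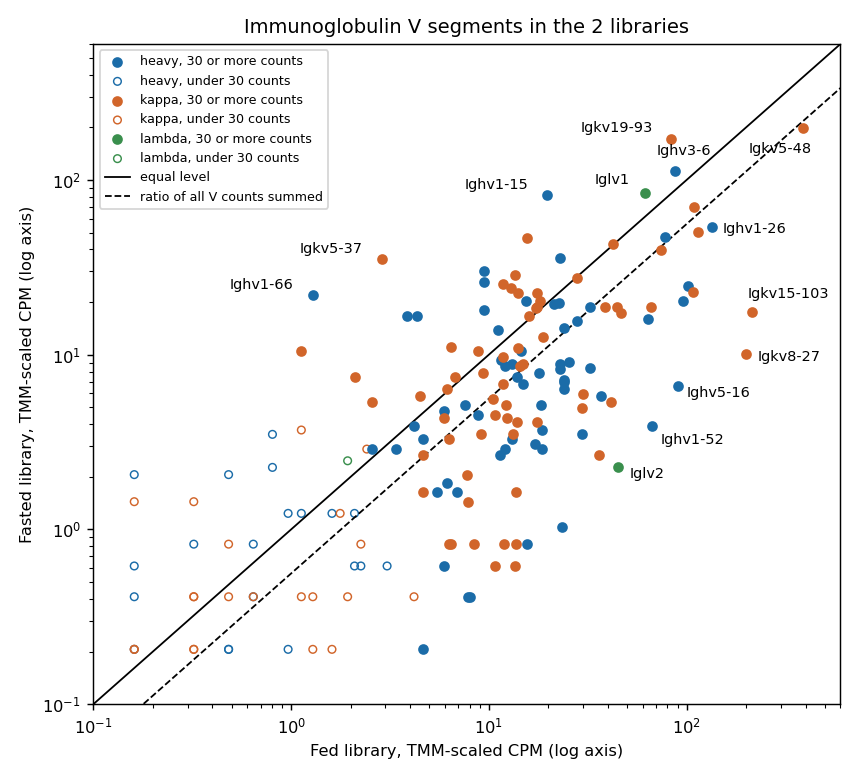
TMM-scaled CPM (counts relative to the scaled library size) of each V segment with a read in both libraries, fed on the x axis and fasted on the y axis, both log axes, with filled points for segments with at least 30 counts. The solid line marks equal levels and the dashed line the summed ratio of 0.560; Igkv8-27, Ighv1-52 and Iglv2 lie far below both lines and Ighv1-66 and Igkv5-37 far above.

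Heavy chain segments, which encode the variable domain of the chain that also sets the antibody class, lie on the minus strand of chromosome 12. The summed heavy V count was 9623 for fed and 4172 for fasted mice, a ratio of 0.555 (0.535 to 0.575). Of 62 segments with at least 30 counts, 39 were lower, 8 higher and 15 neither, with a median log2 ratio of -1.26.

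The most counted heavy segment of the fed library, Ighv1-26 (ENSMUSG00000094546, 114788372 to 114788805), had 835 counts there and 261 in the fasted library, a ratio of 0.400 (0.347 to 0.460). The most counted of the fasted library was Ighv3-6 (114288152 to 114288582), with 542 fed and 545 fasted counts, a ratio of 1.29 (1.14 to 1.45) that did not reach 1.5-fold. Its share of heavy V counts was 5.63% in the fed library and 13.1% after fasting, so it ranked 5 of the heavy segments for fed and 1 for fasted mice. Ighv1-39 had 635 and 120 counts (ratio 0.242, 0.197 to 0.294), Ighv9-3 had 595 and 98 (0.211, 0.168 to 0.261), and Ighv1-19 had 397 and 78 (0.251, 0.195 to 0.321). Ighv1-9, at 484 and 228 counts, stayed close to the class as a whole, with a ratio of 0.603 (0.513 to 0.707).

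The heavy segments ranked lowest by the interval bound nearest 1 follow, a ranking that itself favours many fed and few fasted counts. Ighv1-52 had 415 fed and 19 fasted counts, a ratio of 0.0586 (0.0349 to 0.0926). Ighv5-16, of which 92.3% of windows were found in no other gene, had 563 and 32 counts, a ratio of 0.0727 (0.0493 to 0.104). Further members of its family were as low: Ighv5-15, with 145 and 5 counts (0.0441, 0.0141 to 0.105), and Ighv5-12, with 97 and 4 (0.0528, 0.0141 to 0.139). Ighv1-34 had 50 and 2 counts (0.0512, 0.00603 to 0.195), an interval that spans more than an order of magnitude at this depth.

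Other heavy segments went the opposite way. Ighv1-66 had 8 fed and 107 fasted counts, a ratio of 17.1 (8.38 to 40.7), the highest of all measured V segments. Ighv1-15 had 123 and 400 counts, a ratio of 4.16 (3.39 to 5.13), and ranked 25 of the heavy segments for fed and 2 for fasted mice. Ighv1-69, whose sequence stands above beside that of Ighv1-52, had 24 and 81 counts, a ratio of 4.32 (2.71 to 7.12).

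**Figure D2:**
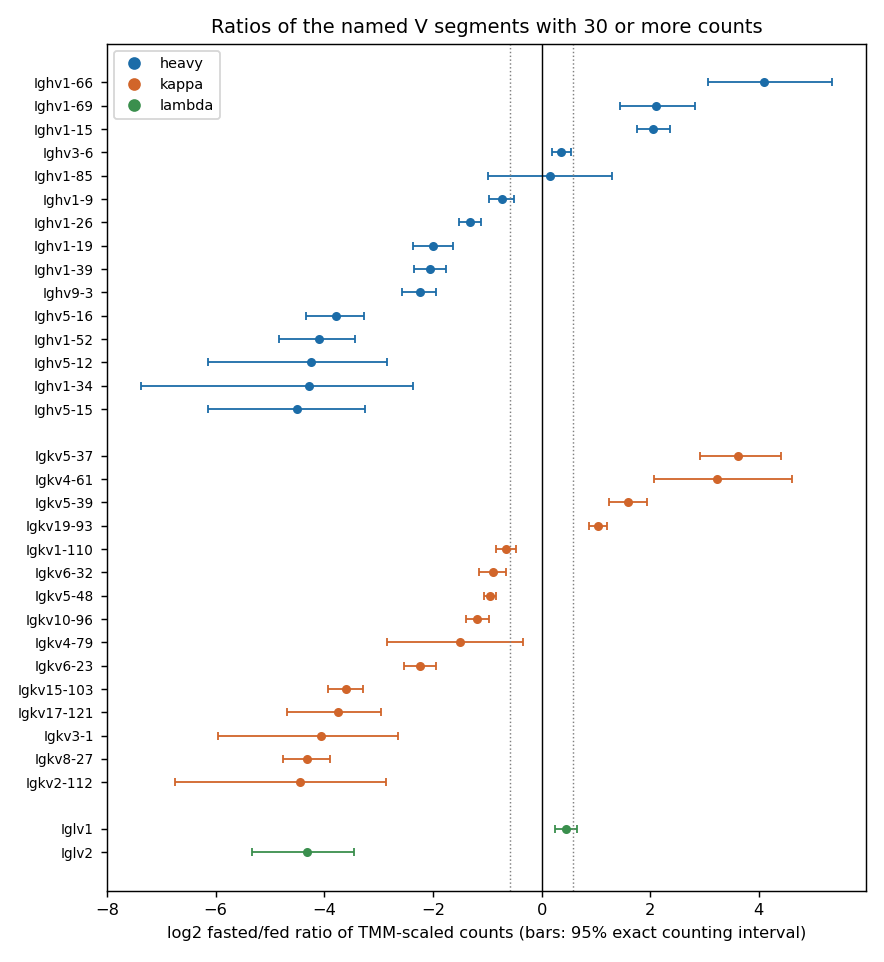
The log2 fasted/fed ratio of TMM-scaled counts (x axis) for the V segments chosen by the naming rule that had at least 30 counts (y axis, by class), with points for ratios and bars for the 95% exact counting interval. The dotted lines mark 1.5-fold; ratios run from 0.0441 for Ighv5-15 to 17.1 for Ighv1-66.

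Kappa segments encode the variable domain of the light chain that most mouse antibodies carry, and lie on chromosome 6 on both strands. Their counts summed to 13852 for fed and 5960 for fasted mice, a ratio of 0.550 (0.534 to 0.567), close to that of heavy segments. The heavy share of heavy and kappa V counts was 41.0% in the fed (40.4% to 41.6%) and 41.2% in the fasted library (40.2% to 42.1%). Of 66 kappa segments with at least 30 counts, 38 were lower, 11 higher and 17 neither, with a median log2 ratio of -0.90.

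Igkv5-48 (ENSMUSG00000076563, 69726573 to 69727138, minus strand) had most counts in both libraries, 2404 fed and 969 fasted. Per kilobase of coding length its level was 1114 scaled CPM for fed and 575 for fasted mice, the highest of all V segments in each. Its ratio was 0.516 (0.478 to 0.556), and its share of kappa counts was 17.4% and 16.3%. The next places differed between the libraries. Igkv15-103, with 99.4% of windows its own, had 1325 fed and 85 fasted counts, a ratio of 0.0821 (0.0651 to 0.102). Igkv8-27 had 1246 and 49 counts, a ratio of 0.0503 (0.0370 to 0.0669), and its share of kappa counts was 9.0% in the fed library and 0.822% after fasting. Igkv19-93, all of whose windows were its own, had 516 and 830 counts, a ratio of 2.06 (1.84 to 2.30), and its share was 3.73% and 13.9%.

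Other much-counted kappa segments were lower to different extents. Igkv1-110 had 681 fed and 338 fasted counts (ratio 0.635, 0.556 to 0.725), Igkv10-96 had 712 and 245 (0.440, 0.379 to 0.510), and Igkv6-32 had 459 and 192 (0.535, 0.450 to 0.635). Igkv6-23 was lower than these, with 666 and 111 (0.213, 0.173 to 0.261). Among less counted segments, ranked by the interval bound nearest 1, the lowest were Igkv17-121, with 224 and 13 counts (0.0743, 0.0389 to 0.130), Igkv2-112, with 84 and 3 (0.0457, 0.00924 to 0.138), and Igkv3-1, with 85 and 4 (0.0602, 0.0160 to 0.160). By the same bound the highest were Igkv5-37, with 18 and 172 counts (12.2, 7.51 to 21.1), Igkv4-61, with 7 and 51 (9.32, 4.21 to 24.3), and Igkv5-39, with 97 and 227 (2.99, 2.35 to 3.84).

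The remaining measured segments filled the range between these. Further higher segments, named here after their values were seen, included Ighv3-8 (143 fed and 173 fasted counts, ratio 1.55, 1.23 to 1.95), Igkv3-7 (13 and 36 counts, 3.54, 1.83 to 7.28), Ighv4-1 (59 and 127 counts, 2.75, 2.01 to 3.82) and Igkv8-24 (73 and 123 counts, 2.16, 1.60 to 2.92), a relative of the very low Igkv8-27. Among segments that were neither, Igkv9-120 had 265 and 210 counts (1.01, 0.842 to 1.22) and Igkv6-15 had 173 and 134 (0.991, 0.785 to 1.25), both above the ratio of the kappa sum. Of the other lower segments, Igkv1-117 had 409 and 91 counts (0.285, 0.224 to 0.358), and Ighv1-77 had 183 and 17 (0.119, 0.0678 to 0.196), about as far down as Igkv15-103.

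The lambda locus on chromosome 16 is small in the mouse, and its 3 V segments split. Iglv1 (ENSMUSG00000076934, 19085017 to 19085500, minus strand) had 383 fed and 408 fasted counts, a ratio of 1.36 (1.18 to 1.57) that did not reach 1.5-fold. Iglv2 (ENSMUSG00000076940, 19260401 to 19260859, minus strand) had 281 and 11 counts, a ratio of 0.0501 (0.0247 to 0.0910). Iglv3 had 12 counts in each library, too few for a ratio under the minimum. Iglv1 thus made up 56.7% of lambda V counts for fed and 94.7% for fasted mice, and Iglv2 41.6% and 2.55%. The odds of Iglv1 over Iglv2 were 27.2 times as high in the fasted library (14.6 to 55.9). Since the lambda sum rests on these segments, its ratio of 0.816 (0.721 to 0.922) was 0.10 (0.0627 to 0.154) without Iglv1.

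Of the J and constant genes of the lambda locus, which are joined to these V segments, Iglj1, Iglc1, Iglj2 and Iglc2 showed the same order. In the mouse, Iglv1 is joined to J and constant genes such as Iglj1 and Iglc1, and Iglv2 mostly to Iglj2 and Iglc2. Iglc1 had 444 fed and 642 fasted counts (ratio 1.85, 1.64 to 2.09), and Iglc2 had 324 and 51 (0.201, 0.147 to 0.271). Iglj1 had 34 and 41 counts (1.54, 0.955 to 2.51), so its interval held 1, and Iglj2 had 36 and 6 (0.213, 0.0734 to 0.511). Iglc3, a near-identical copy of Iglc2, was lower, with 61 and 23 counts (0.482, 0.285 to 0.791). By position Iglc3 (start 19065230) stands beside Iglc1 (19061618) and Iglv1, away from Iglc2 (19198396). Its ratio did not go with those of Iglc1 and Iglv1. Reads that fit both Iglc2 and Iglc3 were counted for neither, so both values rest on the bases that set the copies apart, a limit on each. Iglj3 had 18 fed and 8 fasted counts, too few for a ratio under the minimum. Lambda V counts made up 4.65% of lambda and kappa V counts in the fed (4.32% to 5.01%) and 6.74% in the fasted library (6.14% to 7.39%). The constant genes gave 3.53% (3.30% to 3.77%) and 6.83% (6.36% to 7.33%).

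The families, groups of V segments of like sequence that share the first number of their names, did not share 1 ratio. Of 12 heavy families with at least 30 counts 7 were lower, 2 higher and 3 neither, and of 16 kappa families 9 were lower, 2 higher and 5 neither. Ighv1, the largest heavy family with 59 members, had 57.4% of heavy V counts for fed and 55.5% for fasted mice (ratio 0.536, 0.511 to 0.563). Family Ighv5 had 12.7% and 4.07% (ratio 0.178, 0.150 to 0.209), with 7 of its 8 measured members lower and none higher, and a ratio of 0.267 without Ighv5-16. Family Ighv9 had 7.61% and 2.80% (0.204, 0.167 to 0.249), with all 3 measured members lower. Family Ighv8 had 0.904% and 5.54% (3.40, 2.64 to 4.40), and both its measured members, Ighv8-8 (59 and 146 counts) and Ighv8-12 (27 and 81), were higher. Ighv3 had 8.73% and 17.7% (1.12, 1.02 to 1.24), which rested on Ighv3-6, since without it the ratio was 0.829.

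Kappa families often followed 1 member. Igkv5 had a ratio of 0.697 (0.653 to 0.744) with Igkv5-48 and 2.92 without it, and Igkv8 had 0.246 (0.220 to 0.275) with Igkv8-27 and 0.575 without it. Both members of Igkv17 were low, Igkv17-121 as given above and Igkv17-127 at 67 and 3 counts, for a family ratio of 0.0703 (0.0397 to 0.116). Igkv4, the largest kappa family with 28 members, had 10 of 17 measured members lower and 2 higher (ratio 0.632, 0.576 to 0.693). Igkv16, a family of 1 listed segment, Igkv16-104, had 84 and 139 counts, a ratio of 2.12 (1.60 to 2.81). Segments and families named in these 2 paragraphs beyond the naming rule were chosen after their values were seen.

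**Figure D3:**
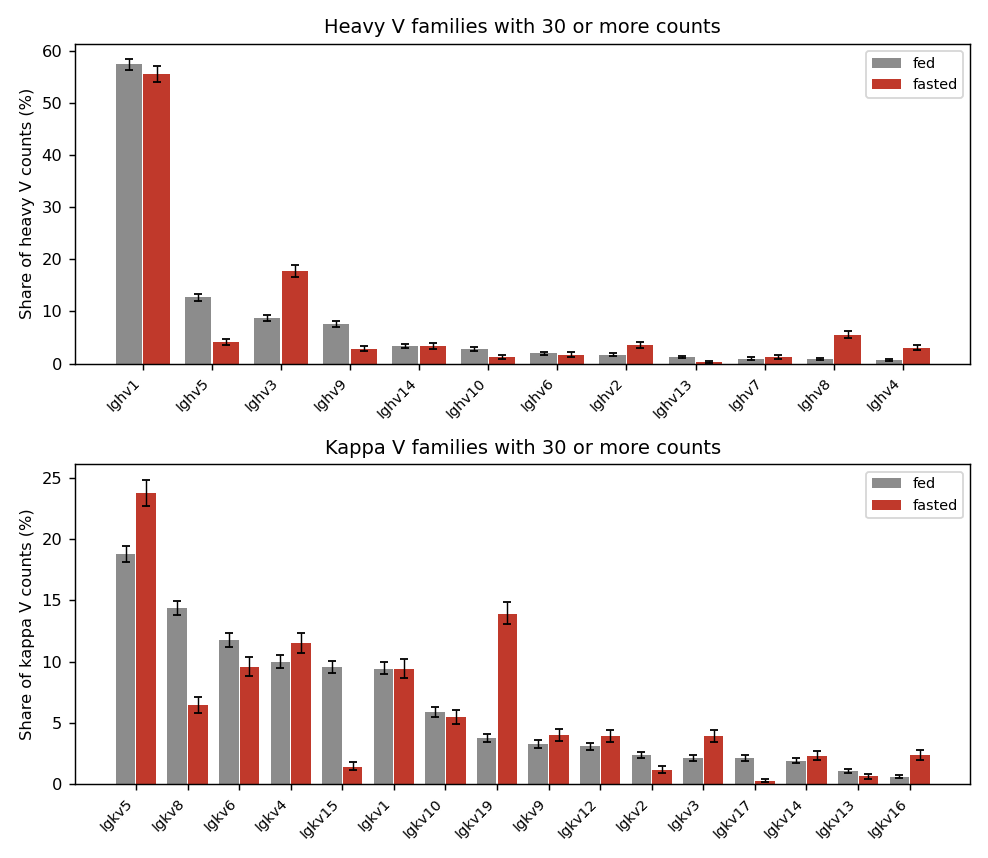
Share of heavy V counts (top) and kappa V counts (bottom) held by each family with at least 30 counts, as bars in percent for the fed and fasted library with 95% exact binomial intervals. Ighv1 is near 57.4% and 55.5%, while Ighv5 (12.7% and 4.07%), Ighv3 (8.73% and 17.7%), Igkv15 (9.57% and 1.43%) and Igkv19 (3.73% and 13.9%) differ most plainly.

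The number of segments with a read differed little between the libraries although their ranking did. Heavy V counts were somewhat more concentrated in the fasted library. In the heavy class 50% of V counts lay in 10 segments for fed and 9 for fasted mice, and 90% in 42 and 38. For kappa 50% lay in 6 and 7 segments and 90% in 40 and 36. The effective number of segments (the exponential of the Shannon entropy of their shares) was 42.2 for fed and 37.1 for fasted mice for heavy and 31.0 and 31.6 for kappa. By the inverse Simpson index, which gives leading segments more weight, the effective number was 28.5 and 22.1 for heavy and 16.1 and 16.3 for kappa. Heavy segments with a read numbered 89 and 87, and kappa segments 93 and 88. At the depth of the fasted library the fed library would be expected to show 83.4 heavy and 86.5 kappa segments. The 5 leading heavy segments of each library held 32.9% (32.0% to 33.9%) of fed and 38.5% (37.0% to 40.0%) of fasted heavy counts, and the 5 leading kappa segments 46.0% (45.1% to 46.8%) and 43.8% (42.5% to 45%). Of the 10 most counted heavy segments in each library 4 were shared, and of the 10 most counted kappa segments 5. Across all 112 heavy segments the rank correlation of counts between the libraries was 0.84, and across all 101 kappa segments 0.83. Across the segments with at least 30 counts it was 0.41 (62 heavy) and 0.53 (66 kappa). All of these share each segment's countable part, and the first 2 are set in part by segments with few or no reads.

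Segments of 1 class did not share 1 ratio. The odds of a segment against the rest of its class differed between the libraries beyond the interval for 42 of 62 heavy segments, 13 above and 29 below, and for 48 of 66 kappa segments, 24 above and 24 below. That is 67.7% and 72.7%. Of all gene rows with at least 30 counts 53.4%, and of the 10858 in the same range of counts 51.7%, had a scaled ratio whose interval excluded 1, a share set against the typical gene and not against a class, so the V shares are to be read beside that level. The V comparison sets the odds within 1 library against those within the other, and so does not depend on how the libraries were scaled. The shares of gene rows do depend on it.

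The ratios did not run in 1 direction along either locus. In the heavy locus, read in 4 equal parts by order from the D and J segments, the summed ratio was 0.389 (0.353 to 0.427), 0.711 (0.671 to 0.754), 0.327 (0.301 to 0.356) and 0.797 (0.739 to 0.859). In the kappa locus from the J segments the parts gave 0.367 (0.341 to 0.394), 0.659 (0.625 to 0.694), 0.911 (0.854 to 0.972) and 0.396 (0.371 to 0.422). Single segments weighed heavily in these sums. Without the most counted segment of each part, Igkv8-27, Igkv5-48, Igkv19-93 and Igkv15-103, the kappa parts gave 0.545, 0.852, 0.563 and 0.551. Without Ighv5-16, Ighv3-6, Ighv1-26 and Ighv1-82 the heavy parts gave 0.526, 0.594, 0.296 and 0.825. The rank correlation of the log2 ratio with the chromosome coordinate was 0.30 across 62 heavy and 0.12 across 66 kappa segments, a description with neighbours that share sequence. The most distant heavy part, which holds Ighv1-66 and Ighv1-69, had 8 of 19 measured segments lower and 4 higher, against 12 of 15 lower and 1 higher in the part nearest the D and J segments.

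**Figure D4:**
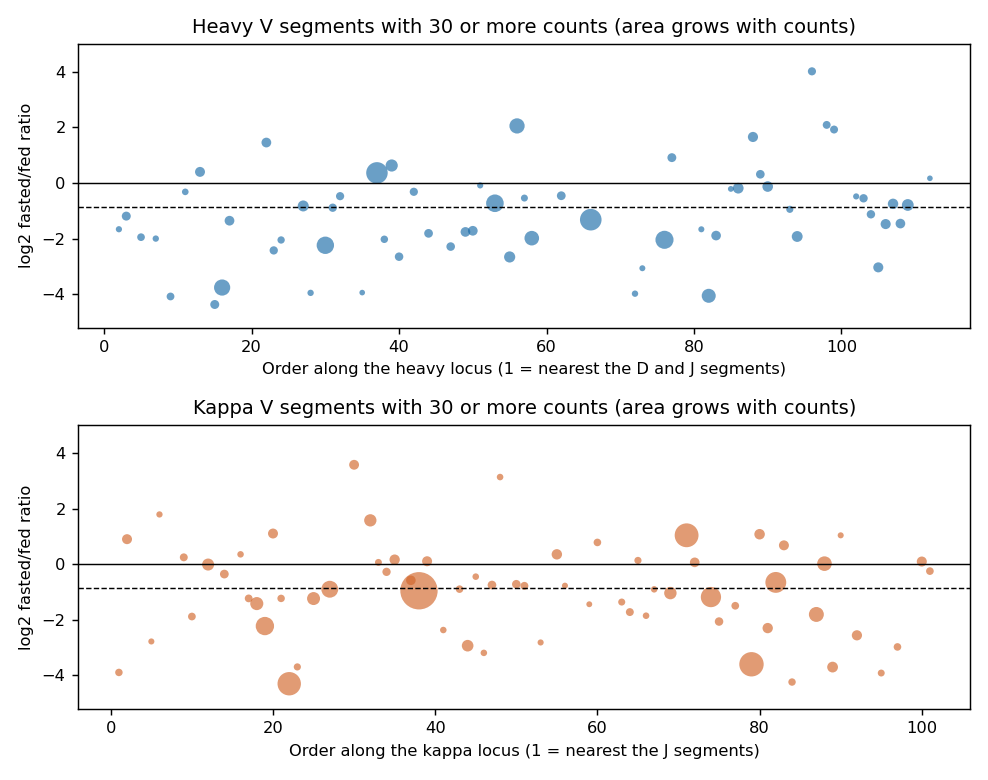
The log2 fasted/fed ratio (0.5 counts added to each count, y axis) of heavy (top) and kappa (bottom) V segments with at least 30 counts by their order along the locus (x axis), with point area growing with counts, a solid line at equal levels and a dashed line at the ratio of the class sum. High and low segments lie beside each other along both loci.

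Some segments of like sequence lay far apart in their ratios. The median difference of heavy and kappa pairs at least 95% identical was below that of all pairs in their class. Ighv1-52 and Ighv1-69, 94.9% identical over their coding parts, had ratios of 0.0586 and 4.32. Igkv3-1 and Igkv3-2, 92.8% identical, had 4 of 89 and 117 of 197 counts in the fasted library, ratios of 0.0602 and 1.87 (1.40 to 2.52). Both of these pairs were chosen for their gap. Over the 20 heavy pairs at least 95% identical the median difference in log2 ratio was 1.38, and over the 20 such kappa pairs it was 1.12. The most identical heavy pair, Ighv1-50 and Ighv1-69 (97.2%), still differed by 3.76, and the most identical kappa pair, Igkv8-19 and Igkv8-28 (97.5%), by 4.05. Iglv1 and Iglv2 (96.9%), the only measured lambda pair, differed by 4.70. Over the 47 heavy pairs of a segment and its closest measured relative, whatever its identity, the median difference was 1.91, against 1.61 over all 1891 heavy pairs, and over 48 such kappa pairs it was 1.21 against 1.60 over all 2145. Pairs share segments, so these are descriptions of 1 set of values. The uniqueness of a segment's sequence had a rank correlation with its log2 ratio of -0.041 across the 62 heavy and 0.061 across the 66 kappa segments with at least 30 counts.

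The listed segments annotated as pseudogenes, which cannot encode a working chain, carried no assigned read. Of the listed members 12 heavy and 5 kappa segments are IG_V_pseudogene in GENCODE vM21, and all 17 had a missing value, read as 0, in both libraries. That annotation holds 70 heavy and 60 kappa V pseudogenes, so most were not listed and could not be seen. It also holds 13 heavy and 4 kappa V genes that were not listed. Each count of 0 allows up to 3 counts, 0.483 scaled CPM for fed and 0.617 for fasted mice. Of the 199 members annotated as V genes 8 had no read, and the share of their windows found in no other gene's transcripts ran from 1.23% for Ighv1-72 to 100% for Igkv20-101-2. For the pseudogenes that share ran from 27.4% to 74.6%.

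The V sum and the constant genes to which V segments are joined had close ratios for kappa and heavy chains, and less close ones for lambda. Kappa V segments had 61.1 counts per 100 counts of Igkc, the kappa constant gene, in each library, and the odds of kappa V over Igkc differed by a factor whose interval held 1 (0.961 to 1.04). Heavy V segments had 12.4 counts per 100 of the heavy constant genes for fed and 11.4 for fasted mice, a factor of 0.913 (0.879 to 0.949). Lambda V segments had 81.5 and 60.2 counts per 100 of the lambda constant genes, a factor of 0.738 (0.629 to 0.866). Igha, the constant gene of IgA, had 75600 fed and 35609 fasted counts (ratio 0.603, 0.595 to 0.610), and Igkc had 22671 and 9762 (0.551, 0.538 to 0.564). Ighm, that of IgM, had 785 and 602 (0.981, 0.881 to 1.09). Of 11 measured constant genes 7 were lower, 1 higher and 3 neither (median log2 ratio -0.86), with Ighg2c lowest at 63 and 6 counts (0.122, 0.0431 to 0.280). Of 10 measured J segments 8 were lower and none higher (median -0.99), among them Igkj2 at 531 and 140 counts (0.337, 0.278 to 0.407). The lower share was 63.6% for constant genes and 80% for J segments, against 17.3% of all gene rows with at least 30 counts. The higher share was 9.09% and 0%, against 17.3%.

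Among other genes of the B lineage more were lower than higher, with exceptions among plasma cell markers. Xbp1, Prdm1, Sdc1, the B cell genes that were neither and the germinal centre genes given here were added after their values were seen. In the list of IgA secretion and plasma cell genes 12 of 21 measured members were lower, 2 higher and 7 neither (median log2 ratio -0.65). That was 57.1% lower and 9.52% higher, against 17.3% each of all gene rows with at least 30 counts. Of the 9 plasma cell markers among them, 6 were lower (Jchain, Mzb1, Irf4, Derl3, Tnfrsf17 and Pou2af1) and none higher. The 3 that were neither were Xbp1, Prdm1 and Sdc1. Jchain, which links IgA into dimers, had 4529 and 1610 counts (0.455, 0.429 to 0.482), while Pigr, the epithelial receptor that carries IgA into the lumen, had 28426 and 15979 (0.719, 0.705 to 0.733) and did not reach 1.5-fold. Xbp1 and Prdm1, transcription factors of plasma cells that other cells also make, had 968 and 961 counts (1.27, 1.16 to 1.39) and 98 and 82 (1.07, 0.788 to 1.45). Sdc1, which encodes the plasma cell and epithelial surface protein syndecan, had 678 and 558 (1.05, 0.940 to 1.18), and Ell2, an elongation factor used in making secreted immunoglobulin, was higher at 139 and 254 (2.34, 1.89 to 2.90). Creld2, an endoplasmic reticulum protein, had 272 and 43 counts (0.202, 0.143 to 0.280), and Herpud1, a stress-induced protein of the same compartment that many cell types make, had 987 and 4695 (6.09, 5.68 to 6.52). Of 17 measured B cell genes 13 were lower and none higher (median -0.88), including Ms4a1, which encodes CD20, at 106 and 27 counts (0.326, 0.205 to 0.501), the complement receptor gene Cr2 at 100 and 10 (0.128, 0.0595 to 0.245), the antigen receptor subunit gene Cd79a at 128 and 65 (0.650, 0.474 to 0.882) and Ciita, the activator of MHC class II genes, at 178 and 49 (0.352, 0.251 to 0.486). The lower share of B cell genes was 76.5%, against 17.3% of gene rows. The 4 B cell genes that were neither were Blnk (59 and 46 counts, ratio 0.997), Ebf1 (35 and 25, 0.914), Cd72 (64 and 45, 0.900) and Cd22 (82 and 43, 0.671). Of 5 measured germinal centre genes 3 were lower and 1 higher (60% and 20%, against 17.3% each of gene rows). The lower ones were Rgs13 (26 and 5 counts), Ung (66 and 24), a DNA repair enzyme, and Mki67 (1525 and 496), which any dividing cell expresses. The higher one was Fas (95 and 127), a death receptor of many cell types. Genes of V(D)J recombination and the surrogate light chain were nearly silent, with Rag2 and Vpreb1 at 0 in both libraries, Dntt at 1 and 0 counts and Vpreb3 at 21 and 13.

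T cell genes differed less than those of the B lineage, and their share of lower genes lay near that of all gene rows. Of 13 measured T cell genes 2 were lower, Cd3g (69 and 33 counts) and Trdc (33 and 12), and 11 neither (median log2 ratio -0.33). That was 15.4% lower and 0% higher, against 17.3% each of all gene rows with at least 30 counts. The V segments of the T cell receptor, which are built in the same way, could not be compared segment by segment. All 45 listed together had 61 fed and 30 fasted counts (ratio 0.629, 0.392 to 0.989), and none reached 30.

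**Figure D5:**
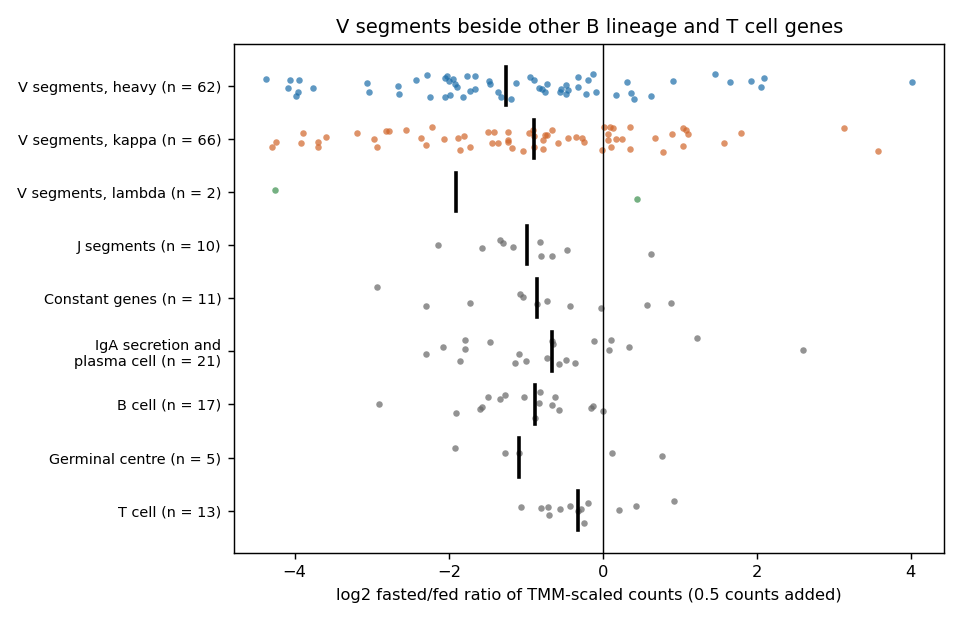
The log2 fasted/fed ratio (0.5 counts added, x axis) of each gene with at least 30 counts in the 3 V classes and in lists of J segments, constant genes, IgA secretion and plasma cell, B cell, germinal centre and T cell genes (rows), with a vertical bar at each median. Medians are -1.26 for heavy and -0.90 for kappa V segments and -0.33 for T cell genes, and single V segments reach farther in both directions than the genes of the other lists.

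Facts of the libraries bear on all these values. The fed library held 5558620 and the fasted library 5434252 counts assigned to genes, while 41.4% and 39.9% of all reads in the files had more than 1 alignment and 13.4% and 21.0% lay over no counted feature. Markers of the labelled ileal epithelium were present, with 7 of 7 listed genes measured, 1 higher, 1 lower (Muc2) and 5 neither. The 3 smooth muscle markers were all lower in the fasted library (20723 and 9843 counts summed, none at 0; ratio 0.608, 0.593 to 0.622), and their part in the V result was not tested. Dividing by the total gene count in place of TMM moved every log2 ratio by -0.32, and gave 87 V segments lower and 14 higher against 31.2% and 8.86% of gene rows.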

How the data were processed

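Ribosome-protected fragments were prepared from ileum by nuclease digestion, cleared of rRNA, amplified by PCR and sequenced, per the labels' protocols. The values are whole-number read counts for each gene symbol as deposited by the authors, with no normalisation. Bowtie 1.1.2, STAR, HTSeq, cutadapt and the build mm10 are named, per the submitters' processing notes. The annotation, strand setting and footprint length filter are not stated there or in the labels. No gene row holds 0, and NA was read as 0. The 5 summary rows of reads assigned to no gene were left out; they made up 55.0% of fed and 61.1% of fasted reads.

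Libraries were scaled with TMM (edgeR 4.0.16, R 4.3.3), used for scaling only. Ratios carry exact intervals (scipy 1.17.1); PCR copies are not independent molecules, and the intervals and floors therefore cover no more than counting error. Odds between genes are conditional odds ratios. Medians use 0.5 added counts. All 216 symbols matched GENCODE vM21 (GRCm38, the assembly of mm10), which gave coordinates (1-based), biotypes and sequences; identity came from global alignment (Biopython 1.88). The counting functions were tested on simulated data. Recombination signals and promoters were not analysed here.

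Named segments were, per class, those with most counts (8 heavy, 8 kappa, 3 lambda), the 3 highest and 5 lowest ratios by the interval bound nearest 1, and those beside the 30-count minimum; other lists gave a few fixed genes and up to 2 more by that bound. Members, lists and rules were chosen with earlier results of these data known. Alternatives were other scalings (DESeq2 1.42.0 size factors among them), minimums, thresholds and subsets of segments.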

Additional observations from a re-analysis of the deposited data

How the results depend on the processing

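The count of 78 lower and 19 higher V segments stayed within 1.5 times its value under plain CPM, median-ratio, upper-quartile and immunoglobulin-free TMM scaling, without the most counted segment of each class, at minimums of 10 counts or none, at 2-fold and with wider intervals (64 to 87 lower, 14 to 24 higher). At 2-fold, 49.2% of V segments were lower and 10.8% higher, against 9.13% and 8.25% of gene rows. In every setting for which gene rows were also counted, the lower V share lay above theirs and the higher V share near theirs. A minimum of 100 counts left 86 segments, of which 50 were lower. That was 58.1%, against 16.6% of gene rows. Another 15 were higher, 17.4% against 18.7%. Keeping the segments with at least 50% of their windows found in no other gene's transcripts, an alternative added after the data were seen since no genome was used here, left 56, of which 34 were lower and 11 higher; fewer segments were tested in both. In that subset the summed ratio was 0.50 for heavy and 0.607 for kappa. With plain CPM it was 0.443 for heavy, 0.440 for kappa and 0.652 for lambda, and lambda without Iglv1 gave 0.10. Of the 35 named segments, 2 turned direction with plain CPM, Ighv1-85 (log2 ratio -0.16) and Igkv6-14 (-0.067), both with intervals that hold 1. No paired analysis was possible because each group has 1 library. Depth limits single segments most: with at most 5 fasted counts, as in Ighv5-15, Ighv5-12, Ighv1-34, Igkv2-112 and Igkv3-1, the ratio is known only to be far below 1.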
